A study of Mus musculus with 28 samples.

Results

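The 10 genes described here are immediate early genes, whose transcripts appear within minutes of a stimulus without new protein synthesis, and the family of RNA-binding proteins that shortens the life of such transcripts. They are Zfp36, Zfp36l1 and Zfp36l2, the AP-1 subunit genes Fos, Fosb, Jun and Junb, and Egr1, Ier2 and Btg2. Members were taken by name, each through the probe set annotated to that gene alone with the highest mean over the arrays. All 10 were measured in liver and quadriceps, among 19928 genes, and 9 of them in heart and gastrocnemius, among 30063 genes. Junb has no value in heart and gastrocnemius because the probe set that covers it there is annotated to more than 1 gene. The members were chosen by their difference between 24 and 6 months on these arrays in the 4 tissues, so those differences are given as descriptions and carry no test.

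The mice were females of the inbred strain C57BL/6J, aged 24 months (103 weeks) or 6 months (24 weeks), and total RNA was measured. All mice were group housed on a standard chow diet and were killed after a night without food, so every group shared the fast. For liver and quadriceps (in the thigh) there were 3 arrays at 24 months and 3 at 6 months each. For heart and gastrocnemius (in the calf) there were 4 at 24 months and 4 at 6 months each, on a second array type, 28 arrays in total. The labels name no transgene and no drug, and do not say whether arrays came from separate animals, so errors and p-values measure the spread between these arrays. Values are deposited log2 expression, on which a difference of 1 is a doubling. Array values are not counts, so the number of arrays limits the precision. Over all genes, the median standard error (SE) of an age difference was 0.0956 in liver, 0.0836 in quadriceps, 0.0637 in heart and 0.0667 in gastrocnemius.

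Immediate early genes are switched on by factors that already sit in the cell, such as serum response factor at CArG boxes and CREB at cyclic AMP response elements, when kinases modify them. FOS and JUN proteins pair to form AP-1, a transcription factor, and their mRNAs are soon destroyed. The ZFP36 proteins bind AU-rich elements in the tails of cytokine and immediate early mRNAs and recruit the CCR4-NOT complex, which removes the poly(A) tail. In muscle and liver such genes respond to contraction, feeding, injury and handling of the tissue.

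The tissues carried their usual transcripts. Liver arrays held Alb, serum albumin, at 14.09 to 14.16. Myh4, a fast myosin, was at 13.70 to 13.83 in quadriceps arrays and 13.55 to 13.62 in gastrocnemius arrays. Heart arrays held Myh6, the cardiac alpha myosin, at 13.16 to 13.29. Some arrays stood apart on cell type markers. On 24-month quadriceps replicate 1, 5 hepatocyte markers averaged 8.90, against 6.27 to 7.34 on the other quadriceps arrays, and Alb ran from 7.58 to 11.91 over the quadriceps arrays. On 24-month liver replicate 2, 4 markers of exocrine pancreas averaged 9.85, against 6.32 to 6.84 on the other liver arrays. The mean of 6 cardiomyocyte markers was 11.04 on 24-month heart replicate 1 and 11.21 on replicate 4, against 11.80 to 12.15 on the other heart arrays. Myh6, itself on that list, ran only from 13.16 to 13.29 over the heart arrays, and the list's median age difference was -0.07. The low means thus rest on genes of the list other than Myh6. On 6-month quadriceps replicate 3, 6 adipocyte markers averaged 7.55, against 8.12 to 8.89 on the other quadriceps arrays, and heat shock genes were high, as described below.

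The promoters of 4 members are shown because their differences carry most of what follows and because they differ in the elements named above. Each line is the 250 bases before the annotated start, from RefSeq on build GRCm38.p6, 5′ to 3′ on the gene's strand. Capitals mark the CArG box in Zfp36, a TATA box (TATAAA) in Zfp36l1, the core of the cyclic AMP response element (TGACG) in Fos and a whole element (TGACGTCA) in Btg2. RefSeq entries of this kind were found for 7 of the 10 members.
Zfp36, chr7:28379229-28379478, minus strand: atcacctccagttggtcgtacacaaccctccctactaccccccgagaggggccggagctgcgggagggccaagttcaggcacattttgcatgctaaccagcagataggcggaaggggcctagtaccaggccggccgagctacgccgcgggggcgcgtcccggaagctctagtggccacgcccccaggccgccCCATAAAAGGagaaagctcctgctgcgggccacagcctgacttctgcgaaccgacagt
Zfp36l1, chr12:80113014-80113263, minus strand: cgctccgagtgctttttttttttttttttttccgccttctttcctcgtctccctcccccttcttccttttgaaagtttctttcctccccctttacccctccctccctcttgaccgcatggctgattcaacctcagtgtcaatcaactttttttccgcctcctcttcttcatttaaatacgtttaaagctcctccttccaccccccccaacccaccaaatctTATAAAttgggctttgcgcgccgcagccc
Fos, chr12:85473640-85473889, plus strand: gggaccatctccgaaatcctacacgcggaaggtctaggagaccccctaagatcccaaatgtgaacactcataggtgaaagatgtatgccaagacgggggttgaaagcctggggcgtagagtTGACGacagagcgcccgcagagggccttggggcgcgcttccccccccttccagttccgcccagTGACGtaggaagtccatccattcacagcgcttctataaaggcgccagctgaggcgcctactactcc
Btg2, chr1:134079156-134079405, minus strand: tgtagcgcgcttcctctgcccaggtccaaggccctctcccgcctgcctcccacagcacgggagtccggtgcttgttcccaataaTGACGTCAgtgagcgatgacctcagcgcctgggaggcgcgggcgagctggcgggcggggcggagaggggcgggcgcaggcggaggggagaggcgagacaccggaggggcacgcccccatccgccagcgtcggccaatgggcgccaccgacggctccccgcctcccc

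Both strands of these 250 bases were searched for 5 motifs in each of the 7 members. A CArG box lay at positions -58 to -49 of Zfp36 and in no other of the 7, and 1.47% of 32851 RefSeq promoters of the same length held one. The whole element TGACGTCA lay at positions -166 to -159 of Btg2 alone, and 1.55% of the promoters held it. The core TGACG, which overlaps the whole element, occurred in 4 of the 7 (Fos, Fosb, Junb and Btg2) and in 17.8% of the promoters. TATAAA occurred in Zfp36l1 at positions -29 to -24 and in Fos at -33 to -28, and in 12.4% of the promoters. The AP-1 site TGACTCA occurred in 0 of the 7 and in 4.46% of the promoters. These are matches of letters only, and a motif not found here may lie outside this window.

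Zfp36l1 encodes a ZFP36 family protein that promotes decay of AU-rich mRNAs and is needed for the growth of blood vessels in the mouse embryo. It was lower at 24 months in all 4 tissues, by about the same amount. In liver it read 10.18, 10.36 and 10.46 on the 24-month arrays, against 10.91, 10.59 and 10.48 on the 6-month arrays. In quadriceps it read 8.37, 8.26 and 8.33 at 24 months, against 8.77, 8.64 and 8.78 at 6 months. Every 24-month array lay below every 6-month array in both tissues, though in liver the nearest pair was only 10.46 at 24 months and 10.48 at 6 months. Heart arrays read 9.34, 9.48, 9.16 and 9.24 at 24 months, against 9.70, 9.71, 9.55 and 9.49 at 6 months. Gastrocnemius arrays read 8.42, 8.12, 8.24 and 8.12 at 24 months, against 8.72, 8.65, 8.60 and 8.38 at 6 months. The heart groups did not overlap, and in gastrocnemius the highest 24-month array passed the lowest 6-month array.

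The log2 difference of Zfp36l1, 24 minus 6 months, was -0.33 (SE 0.12, n = 3 per age) in liver and -0.41 (SE 0.07, n = 3 per age) in quadriceps. It was -0.31 (SE 0.08, n = 4 per age) in heart and -0.36 (SE 0.09, n = 4 per age) in gastrocnemius. In linear terms these are levels 1.25-, 1.33-, 1.24- and 1.29-fold lower at 24 months. Leaving out any 1 array kept the difference below 0 in each tissue. The range was then -0.42 to -0.20 in liver, -0.46 to -0.38 in quadriceps, -0.37 to -0.26 in heart and -0.43 to -0.32 in gastrocnemius. Of 18974 genes measured in all 4 tissues, 3 (0.0158%) were lower by at least 0.31 in each. They were Zfp36l1, the imprinted gene Peg3 and the small nucleolar RNA gene Snord14e. That threshold was set by Zfp36l1 itself, so the count describes how far it stood out and tests nothing.

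Endothelial cells are among the cells known to express Zfp36l1, and most of their markers were lower at 24 months too. All 8 endothelial markers measured were lower at 24 months in heart and in gastrocnemius, 7 of 8 in quadriceps and 6 of 8 in liver. Their mean over the list ran from 9.17 to 9.22 at 24 months and from 9.27 to 9.33 at 6 months in heart. In gastrocnemius it ran from 7.31 to 7.77 at 24 months and from 7.64 to 7.98 at 6 months. The median difference of the endothelial markers was -0.27 in gastrocnemius, -0.06 in heart, -0.05 in quadriceps and -0.07 in liver. Fibroblast markers were lower at 24 months in the muscles and heart, though not in liver, at 6 of 6 in quadriceps (median -0.18), 5 of 5 in heart (median -0.13), 4 of 5 in gastrocnemius (median -0.37) and 2 of 6 in liver (median 0.10). Their mean ran from 8.74 to 8.87 at 24 months and from 8.92 to 9.05 at 6 months in quadriceps, and from 7.99 to 8.21 at 24 months and from 8.20 to 8.46 at 6 months in gastrocnemius. In heart it ran from 8.29 to 8.46 at 24 months and from 8.34 to 8.61 at 6 months, and in liver from 7.88 to 7.95 at 24 months and from 7.71 to 7.95 at 6 months. With arrays quantile-normalized, 7 of the 8 endothelial markers were lower in heart and 2 of the 8 in liver. The part of either marker list in the Zfp36l1 difference was not tested, and in these bulk samples fewer cells of a type and less RNA per cell cannot be told apart.

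**Figure D1:**
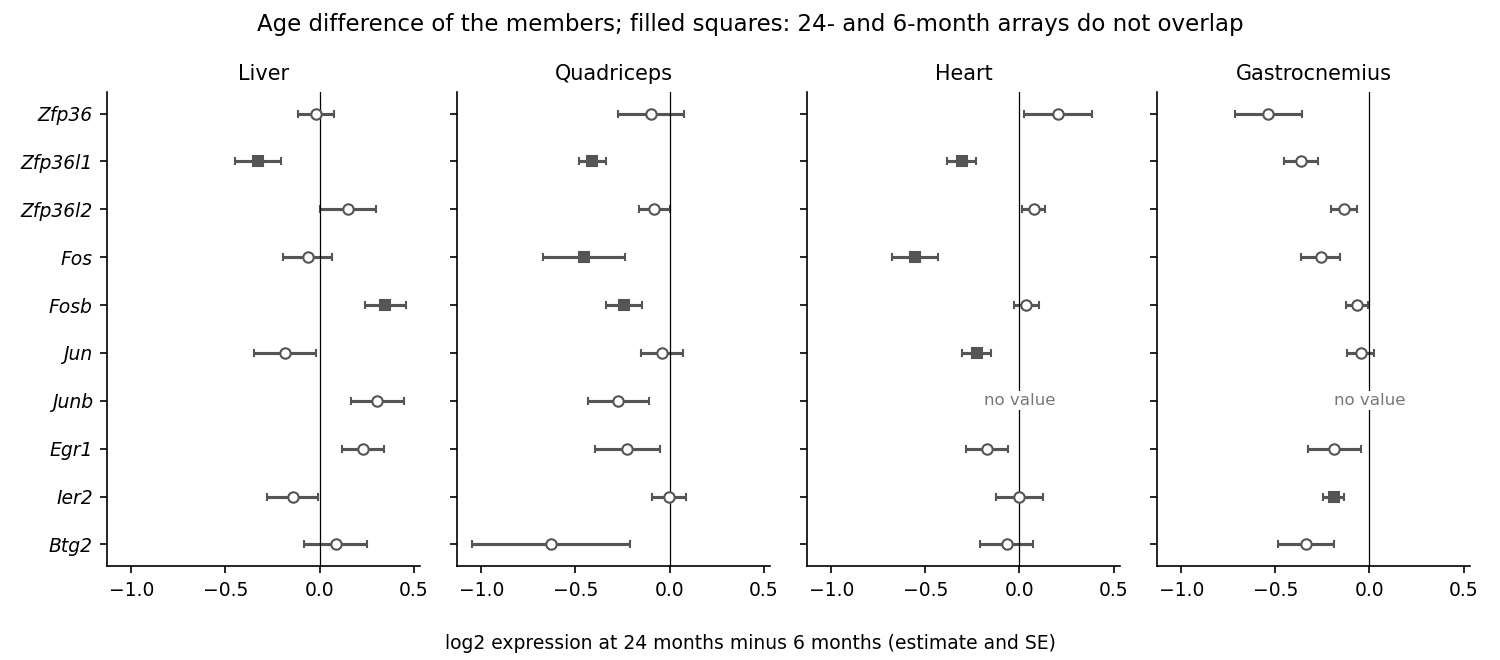
Age difference of the 10 members in each tissue, as log2 expression at 24 months minus 6 months on the horizontal axis, with bars of 1 SE from limma (3 arrays per age in liver and quadriceps, 4 in heart and gastrocnemius). Filled squares mark members whose 24-month and 6-month arrays do not overlap; Zfp36l1 lies between -0.41 and -0.31 in all 4 tissues, whereas the other members change side or size between tissues.

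Zfp36 encodes tristetraprolin, the founding protein of the family, and is itself an immediate early gene. Its age difference was not alike between tissues. Gastrocnemius arrays read 7.18, 7.45, 7.25 and 7.07 at 24 months, against 7.37, 7.48, 8.12 and 8.13 at 6 months. The 6-month arrays fell into a low pair and a high pair. Of the low pair, 7.37 lay within the range of the 24-month arrays and 7.48 just above their highest, 7.45. The difference was -0.54 (SE 0.18, n = 4 per age), a level 1.45-fold lower at 24 months. In heart the values were 8.94, 8.92, 9.55 and 8.83 at 24 months, against 9.01, 8.54, 8.68 and 9.19 at 6 months. One 24-month array was the highest of all 8, the groups overlapped, and the difference was 0.21 (SE 0.18, n = 4 per age), or 0.04 without that array. Zfp36 differed by -0.02 (SE 0.10) in liver and by -0.10 (SE 0.18) in quadriceps (n = 3 per age), with overlapping groups in both.

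Zfp36l2, the third member of the family, had overlapping ages in every tissue. Its quadriceps arrays ran from 8.80 to 8.94 at 24 months and from 8.88 to 9.10 at 6 months, and its heart arrays from 8.53 to 8.76 at 24 months and from 8.47 to 8.62 at 6 months. Gastrocnemius arrays ran from 7.68 to 7.93 at 24 months and from 7.87 to 8.05 at 6 months. The difference was 0.15 (SE 0.15) in liver, -0.08 (SE 0.08) in quadriceps, 0.08 (SE 0.06) in heart and -0.14 (SE 0.07) in gastrocnemius. In liver the spread lay at 6 months, where the arrays ran from 9.86 to 10.51, against 10.24 to 10.43 at 24 months.

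Among the AP-1 subunits, Fos, the partner with which JUN proteins bind DNA most stably, had the lower values at 24 months in the muscles and heart. In heart it read 7.25, 7.60, 7.28 and 7.10 at 24 months, against 8.15, 7.78, 7.70 and 7.82 at 6 months. All 24-month heart arrays lay below all 6-month arrays, and the difference was -0.56 (SE 0.12, n = 4 per age), a level 1.47-fold lower. It stayed between -0.65 and -0.46 whichever heart array was left out. In quadriceps Fos read 6.47, 6.68 and 6.70 at 24 months, against 6.80, 6.75 and 7.66 at 6 months. These groups did not overlap either, but most of the difference of -0.45 (SE 0.22, n = 3 per age) came from the single array at 7.66, and without it the difference was -0.16. In gastrocnemius it read 7.32, 6.99, 7.47 and 7.08 at 24 months, against 7.56, 7.51, 7.50 and 7.33 at 6 months, with overlap and a difference of -0.26 (SE 0.10, n = 4 per age). In liver the arrays ran from 6.39 to 6.61 at 24 months and from 6.27 to 6.75 at 6 months. Both liver means lay below the median of all liver values, 6.72.

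Fosb, a FOS paralogue whose shortened form persists in neurons, was higher at 24 months in liver and lower in quadriceps. Liver arrays read 7.02, 6.83 and 6.64 at 24 months, against 6.58, 6.43 and 6.43 at 6 months. Quadriceps arrays read 6.27, 6.19 and 6.22 at 24 months, against 6.43, 6.31 and 6.67 at 6 months. Neither pair of groups overlapped, with a difference of 0.35 (SE 0.11) in liver and -0.24 (SE 0.10) in quadriceps (n = 3 per age). The quadriceps values lay below the median of all quadriceps values, 6.56, except the 6-month array at 6.67. Fosb differed by 0.04 (SE 0.07) in heart and -0.07 (SE 0.06) in gastrocnemius (n = 4 per age), with overlap in both.

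Jun, which encodes the partner common to most AP-1 dimers, was lower in heart at 24 months, at 8.46, 8.49, 8.38 and 8.31, against 8.51, 8.51, 8.71 and 8.82 at 6 months. The heart groups did not overlap, with 8.49 at 24 months and 8.51 at 6 months the nearest values, and the difference was -0.23 (SE 0.08, n = 4 per age). Elsewhere the groups overlapped, and the difference was -0.18 (SE 0.16) in liver, -0.04 (SE 0.11) in quadriceps and -0.05 (SE 0.07) in gastrocnemius. Junb, whose product can restrain JUN, read 6.81, 7.03 and 6.82 on 24-month liver arrays, against 6.91, 6.44 and 6.39 at 6 months. In quadriceps it read 7.01, 6.73 and 6.75 at 24 months, against 6.89, 6.92 and 7.50 at 6 months. Both pairs of groups overlapped, and the differences ran opposite ways, at 0.31 (SE 0.14) in liver and -0.27 (SE 0.16) in quadriceps (n = 3 per age).

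Btg2, which encodes an antiproliferative partner of the CCR4-NOT deadenylase, had the widest range of any member in quadriceps. It read 8.85, 8.36 and 8.58 at 24 months, against 8.61, 8.67 and 10.40 at 6 months. A single 6-month array lay far above the other 5, which overlapped. The difference of -0.63 (SE 0.42, n = 3 per age) was -0.04 without that array. In gastrocnemius Btg2 read 7.27, 7.47, 7.43 and 6.86 at 24 months, against 7.90, 7.43, 7.63 and 7.42 at 6 months, a difference of -0.34 (SE 0.15, n = 4 per age) with overlapping groups. It differed by 0.09 (SE 0.17) in liver and -0.07 (SE 0.14) in heart.

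Ier2, a small nuclear protein of the immediate early response, was lower at 24 months in gastrocnemius without overlap, at 6.35, 6.36, 6.29 and 6.36, against 6.66, 6.48, 6.52 and 6.46 at 6 months. This difference was -0.19 (SE 0.05, n = 4 per age), and it stayed between -0.21 and -0.15 whichever array was left out. The gene differed by -0.14 (SE 0.14) in liver, by 0.00 in quadriceps (SE 0.09) and by 0.00 in heart (SE 0.12). Egr1, a zinc-finger transcription factor induced by serum and by insulin, read 9.50, 9.88 and 9.65 on 24-month liver arrays, against 9.55, 9.33 and 9.46 at 6 months. The liver groups overlapped by 1 array, and the difference was 0.23 (SE 0.11, n = 3 per age). Egr1 differed by -0.22 (SE 0.17) in quadriceps, -0.17 (SE 0.11) in heart and -0.19 (SE 0.14) in gastrocnemius, with overlap in each.

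**Figure D2:**
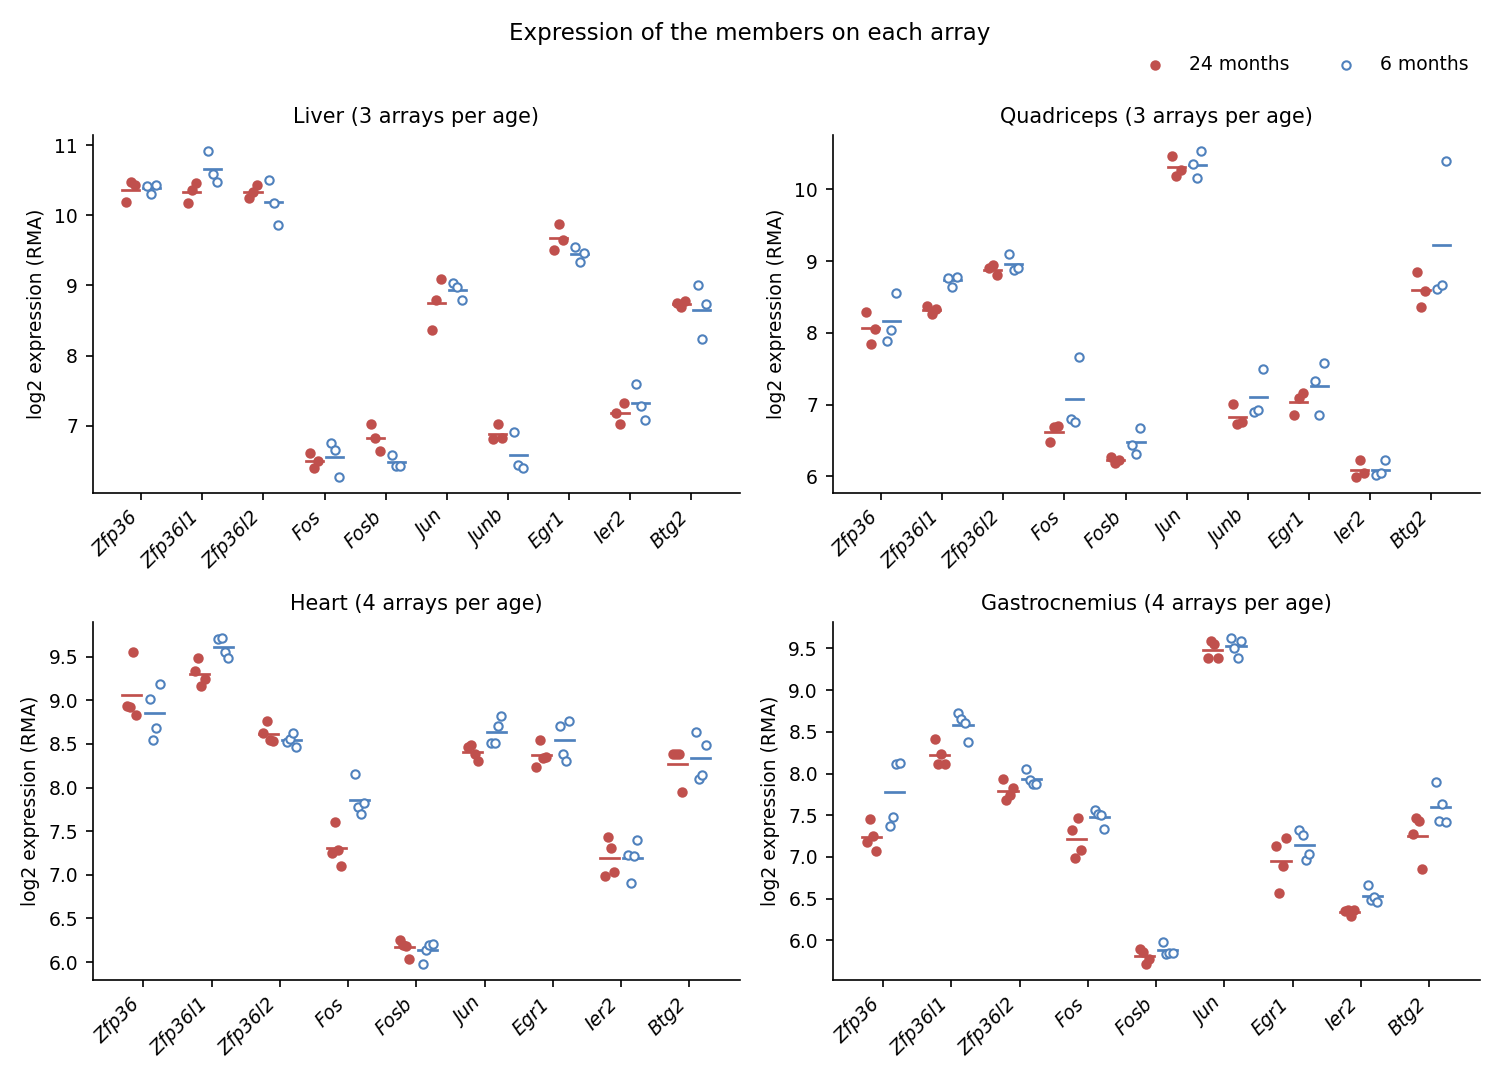
Deposited log2 expression (vertical axis) of each member on every array of the 4 tissues, with 24-month arrays as filled red points left of the 6-month arrays as open blue points; short bars are group means. The scales differ between panels, levels are not comparable between genes, and the single high 6-month quadriceps array shows at 10.40 for Btg2 and 7.66 for Fos.

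The members' group means were compared as a list. The mean was lower at 24 months for 9 of 9 members in gastrocnemius (median difference -0.19), and for 10 of 10 in quadriceps (median -0.23), where Ier2 differed by less than 0.01. It was lower for 5 of 9 in heart (median -0.07, Ier2 equal) and for 5 of 10 in liver (median 0.03). With arrays centred on their medians, 6 of 10 were lower in liver, and the median was -0.06 for the members and -0.06 for all genes. With quantile normalization 4 of 10 were lower in liver, and the median was 0.14 for the members and 0.002 for all genes. Without 24-month heart replicate 4, 4 of 9 were lower in heart and the median was 0.04. The heart median lay between -0.15 and 0.04 over the arrays left out, and the liver median between -0.04 and 0.15. Over all genes the median difference lay between 0.01 and 0.03 in the 4 tissues, and 44.3% of genes in gastrocnemius, 46.7% in quadriceps, 43.6% in heart and 45.2% in liver were lower. With quantile normalization 8 of 9 members were lower in gastrocnemius. Members lower in all 4 tissues were Zfp36l1, Fos and Jun, 3 of the 9 measured throughout, and 7.08% of the 18974 genes were lower in all 4. Of the 3, Zfp36l1 kept its sign in every tissue with each array left out and under each other setting. Fos in liver turned to 0.03 without 6-month replicate 1. Jun turned to 0.01 in liver without 24-month replicate 1, to 0.05 in quadriceps without 6-month replicate 3 and to 0.04 in gastrocnemius with quantile normalization. None of the 9 was higher in all 4, as 12.2% of the genes were.

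All 24-month arrays lay below all 6-month arrays for 1 of 10 members in liver (Zfp36l1; 17.4% of all genes), 3 of 10 in quadriceps (Zfp36l1, Fos and Fosb; 5.33%), 3 of 9 in heart (Zfp36l1, Fos and Jun; 1.36%) and 1 of 9 in gastrocnemius (Ier2; 4.78%). They lay above them for Fosb in liver, against 18.7% of all genes there, and for 0 members in the other tissues, against 6.69% in quadriceps, 1.94% in heart and 3.86% in gastrocnemius. By limma with adjustment over all genes at a threshold of 0.05, 0 members were called in any tissue, where 0.326% of all genes in liver, 0.00502% in quadriceps, 0.00665% in heart and 0.00998% in gastrocnemius were. Those with an unadjusted limma p under 0.05 were 2 of 10 members in liver, 2 of 10 in quadriceps, 3 of 9 in heart and 5 of 9 in gastrocnemius. The shares of all genes were 32.8% in liver, 7.06% in quadriceps, 5.99% in heart and 16.5% in gastrocnemius. Because the list was chosen with these contrasts known, nothing is read from its counts.

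Single arrays carried much of the pattern in quadriceps. On 6-month replicate 3, 9 of 10 members were the highest of the 6 quadriceps arrays or tied for it, where 19.0% of all genes were. The mean over the members was 8.28 on that array, against 7.65 to 7.82 on the other quadriceps arrays. Heat shock genes, which respond to protein damage, were high on the same array, with 12 of 13 measured at their highest. Hspa1a, an inducible HSP70 gene, read 10.10 there, against 7.44 to 7.79 on the other 5, and Dnajb1, its cochaperone, 7.87, against 6.52 to 6.74. The immediate early gene Atf3, a stress-induced transcription factor outside the list, read 8.85, against 6.94 to 7.50. Without this array 7 of 10 members were lower at 24 months and their median difference was -0.07. Zfp36l1 was then lower by -0.39 (SE 0.08), while Fosb differed by -0.14, Junb by -0.08 and Egr1 by -0.06. The part of the heat shock and adipocyte genes in the difference was not tested.

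In gastrocnemius the members' lower values did not rest on 1 array. Their mean per array was 7.30 to 7.43 at 24 months, against 7.56 to 7.69 at 6 months, with no overlap. On 6-month replicate 1, 8 of 9 members were the highest of 8 arrays, where 11.1% of all genes were, and no 24-month array was the highest for any member. All 9 members stayed lower at 24 months whichever gastrocnemius array was left out, with a median between -0.25 and -0.15. Markers of other cells differed between the same arrays. Macrophage markers were higher at 24 months for 10 of 10 (median 0.17), with means of 6.17 to 6.40 at 24 months and 6.00 to 6.08 at 6 months. Endothelial markers were lower for 8 of 8 and fibroblast markers for 4 of 5, with the values given above. Of 12 heat shock genes 7 were lower at 24 months, or 5 with quantile normalization, and their median difference was -0.04. The part of these lists in the members' difference was not tested. In heart the members' mean per array overlapped, at 7.93 to 8.20 at 24 months and 8.07 to 8.29 at 6 months. In liver it was 8.49 to 8.61 at 24 months and 8.39 to 8.73 at 6 months. The high liver array was 6-month replicate 1, which held the highest value of 5 of 10 members, while heat shock genes peaked on 6-month replicate 3 instead, with 11 of 13 at their highest. Single liver arrays weighed on all genes too, as 0 to 5073 genes were called for age with 1 left out. These liver counts are therefore not read as particular to the members or to heat shock genes.

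**Figure D3:**
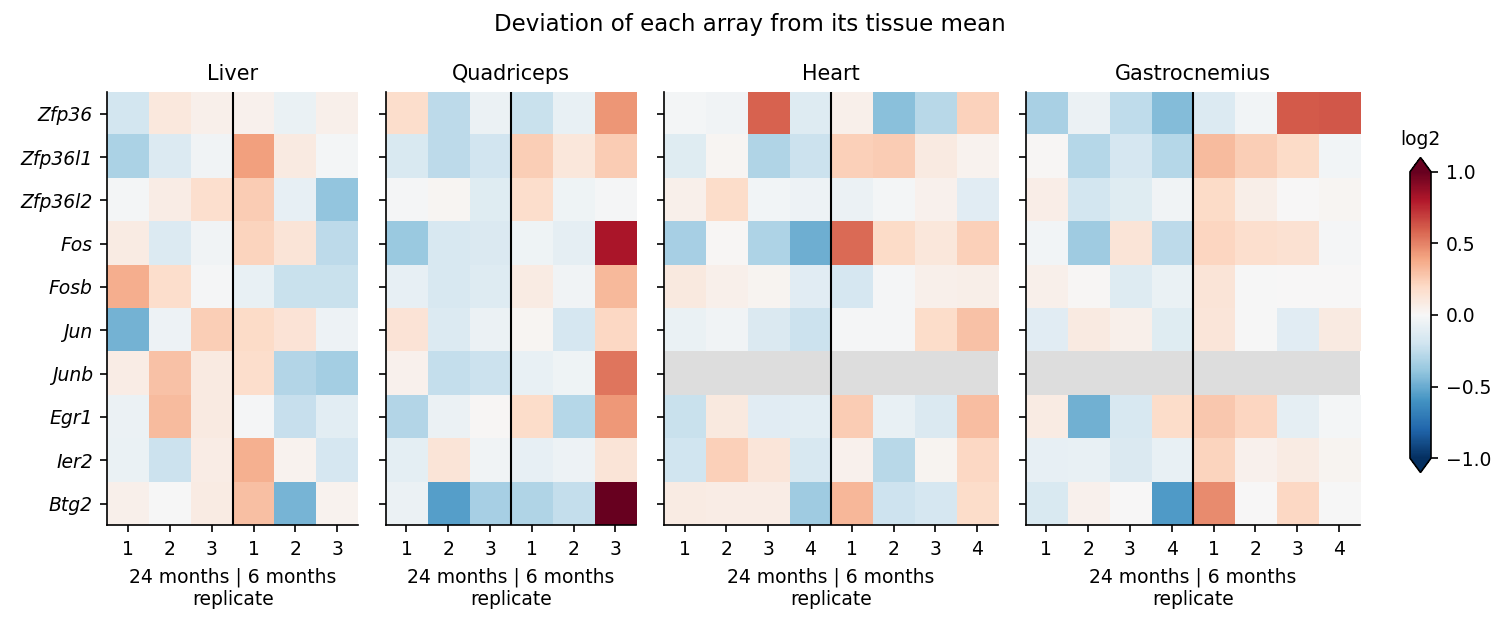
Deviation of each member on each array from its mean over the arrays of the tissue, in log2 units (red above, blue below, scale capped at 1), with 24-month arrays left of the black line and 6-month arrays right of it. Quadriceps 6-month replicate 3 holds the highest or tied value of 9 of 10 members, gastrocnemius 6-month replicate 1 holds the highest value of 8 of 9, and the Zfp36l1 row is bluer at 24 months than at 6 months in every tissue; grey rows have no value.

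The members varied more between arrays of 1 group than most genes did. Within-group spread is given as the standard deviation (SD) pooled over both ages. It was above the median of all genes for 10 of 10 members in liver, 8 of 10 in quadriceps, 8 of 9 in heart and 7 of 9 in gastrocnemius. By definition 50% of genes lie above that median. Btg2 had the widest spread of the members in liver and quadriceps, an SD of 0.28 in liver and 0.74 in quadriceps, the 97.0th and 99.8th percentiles of all genes. Without 6-month liver replicate 2 its SD in liver was 0.12, at the 47.2nd percentile, and without 6-month quadriceps replicate 3 its SD in quadriceps was 0.20, at the 91.8th. Zfp36 was at the 99.3rd percentile in heart and the 98.6th in gastrocnemius but at the 51.1st in liver, or the 15.7th without 24-month liver replicate 1. Zfp36l1 was the tightest member in quadriceps, with an SD of 0.07 at the 22.1st percentile, and lay at the 83.9th in liver (the 53.7th without 6-month replicate 1), the 71.9th in heart and the 77.9th in gastrocnemius.

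How the members differed between tissues was not used to choose them and was tested, within each array type only. Zfp36 was far higher in liver than in quadriceps. It averaged 10.37 ± 0.16 in liver and 8.07 ± 0.22 in quadriceps at 24 months, and 10.39 ± 0.07 in liver and 8.16 ± 0.35 in quadriceps at 6 months (SD, n = 3 each). The difference was 2.30 (SE 0.13; limma, adjusted p = 1.49e-07) at 24 months and 2.22 (SE 0.15; limma, adjusted p = 1.04e-06) at 6 months. Zfp36l1 was higher in liver by 2.01 (SE 0.09; limma, adjusted p = 4.21e-08) at 24 months and by 1.93 (SE 0.11; limma, adjusted p = 2.98e-07) at 6 months. Zfp36l2 was higher by 1.45 (SE 0.09) at 24 months and by 1.22 (SE 0.15) at 6 months, which also passed. All 3 family members thus passed in the same direction at both ages. Over all genes the median of liver minus quadriceps was 0.17 at 24 months and 0.10 at 6 months, and with arrays centred on their medians the 3 family members were still higher in liver, by 1.10 to 2.11.

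Egr1 was also higher in liver, by 2.64 (SE 0.12; limma, adjusted p = 3.67e-08) at 24 months and by 2.19 (SE 0.16; limma, adjusted p = 1.73e-06) at 6 months, a level 6.25-fold and 4.56-fold higher in liver. Ier2 was higher in liver by 1.09 (SE 0.10) at 24 months and 1.23 (SE 0.13) at 6 months, past the threshold both times. Its quadriceps means lay below the median of all quadriceps values, 6.56, at both ages. Jun went the other way. It averaged 8.75 ± 0.36 in liver and 10.31 ± 0.14 in quadriceps at 24 months, and 8.93 ± 0.13 in liver and 10.35 ± 0.19 in quadriceps at 6 months (SD, n = 3 each). Jun was therefore 2.94-fold lower in liver at 24 months (limma, adjusted p = 2.05e-05) and 2.66-fold lower at 6 months (limma, adjusted p = 2.21e-06). Its FOS and JUN relatives differed less. Fosb was higher in liver at 24 months by 0.60 (SE 0.10; limma, adjusted p = 0.000605) and differed by 0.01 (SE 0.10; limma, adjusted p = 0.935) at 6 months, where scaling by quantiles or medians turned the sign. Junb was lower in liver at 6 months by -0.52 (SE 0.18; limma, adjusted p = 0.0304). It did not pass without any 1 of 3 of the 6-month arrays, at -0.33 without quadriceps replicate 3 (limma, adjusted p = 0.0866), -0.45 without liver replicate 2 (limma, adjusted p = 0.0927) and -0.43 without liver replicate 3 (limma, adjusted p = 0.109). Fos and Btg2 did not pass at either age, although Fos passed after both scalings, at -0.31 to -0.32 at 24 months and -0.63 to -0.68 at 6 months.

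In all, 7 of 10 members passed between liver and quadriceps at 24 months, 6 higher and 1 lower in liver. Among all genes 68.2% passed, 43.6% higher and 24.6% lower. At 6 months 7 of 10 passed, 5 higher and 2 lower, where 69.8% of all genes passed, 41.6% higher and 28.1% lower. The share of members that passed was near that of all genes, so the counts say nothing particular of the members. The split of all calls moved with the scaling, with 8689 genes higher and 4911 lower at 24 months, or 6109 and 7217 with quantile normalization and 6208 and 6804 with median centring. At 6 months it was 8293 higher and 5608 lower, or 6204 and 7756 with quantile normalization and 6850 and 7059 with median centring. Without 24-month quadriceps replicate 1, which carried the hepatocyte markers, 8 of 10 members passed at 24 months, Btg2 being the addition at 0.27 (limma, adjusted p = 0.0464).

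Heart and gastrocnemius are both striated muscle, and Zfp36 was higher in heart. Zfp36 averaged 9.06 ± 0.33 in heart and 7.24 ± 0.16 in gastrocnemius at 24 months, and 8.86 ± 0.30 in heart and 7.78 ± 0.41 in gastrocnemius at 6 months (SD, n = 4 each). The difference was 1.82 (SE 0.15; limma, adjusted p = 1.46e-06) at 24 months and 1.08 (SE 0.20; limma, adjusted p = 0.000847) at 6 months. Zfp36l1 was higher in heart by 1.08 (SE 0.09) at 24 months and 1.02 (SE 0.08) at 6 months, and Egr1 by 1.41 (SE 0.13) at 24 months and 1.40 (SE 0.12) at 6 months. Zfp36l2, Ier2 and Btg2 also passed higher in heart at both ages, by 0.61 to 1.02. Jun was again the exception, 2.10-fold lower in heart than in gastrocnemius at 24 months (limma, adjusted p = 2.94e-07) and 1.85-fold lower at 6 months (limma, adjusted p = 6.07e-06).

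Fos and Fosb were the members whose call between heart and gastrocnemius hung on the age or the scaling. Fos was higher in heart by 0.09 (SE 0.12; limma, adjusted p = 0.521) at 24 months and by 0.39 (SE 0.09; limma, adjusted p = 0.00403) at 6 months. At 24 months the difference was -0.15 with quantile normalization and -0.23 with median centring, and at 6 months it was 0.25 with the first and 0.07 with the second and passed with neither. Fosb passed at 0.35 at 24 months and 0.25 at 6 months, but over all genes the median of heart minus gastrocnemius was 0.265 at both ages. With arrays centred on their medians Fosb differed by 0.03 at 24 months and by -0.07 at 6 months. In all, 8 of 9 members passed at 24 months (7 higher, 1 lower in heart), where 71.8% of all genes passed (58.6% higher, 13.3% lower). At 6 months 9 of 9 passed (8 higher, 1 lower), where 77.4% of all genes passed (62.2% higher, 15.2% lower). With either scaling 7 of 9 passed at each age, 6 higher and 1 lower. Over all genes 17607 were higher and 3991 lower in heart at 24 months, or 8571 and 8884 with quantile normalization and 7195 and 10173 with median centring. At 6 months 18687 were higher and 4579 lower, or 9340 and 10021 with quantile normalization and 8239 and 11635 with median centring.

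**Figure D4:**
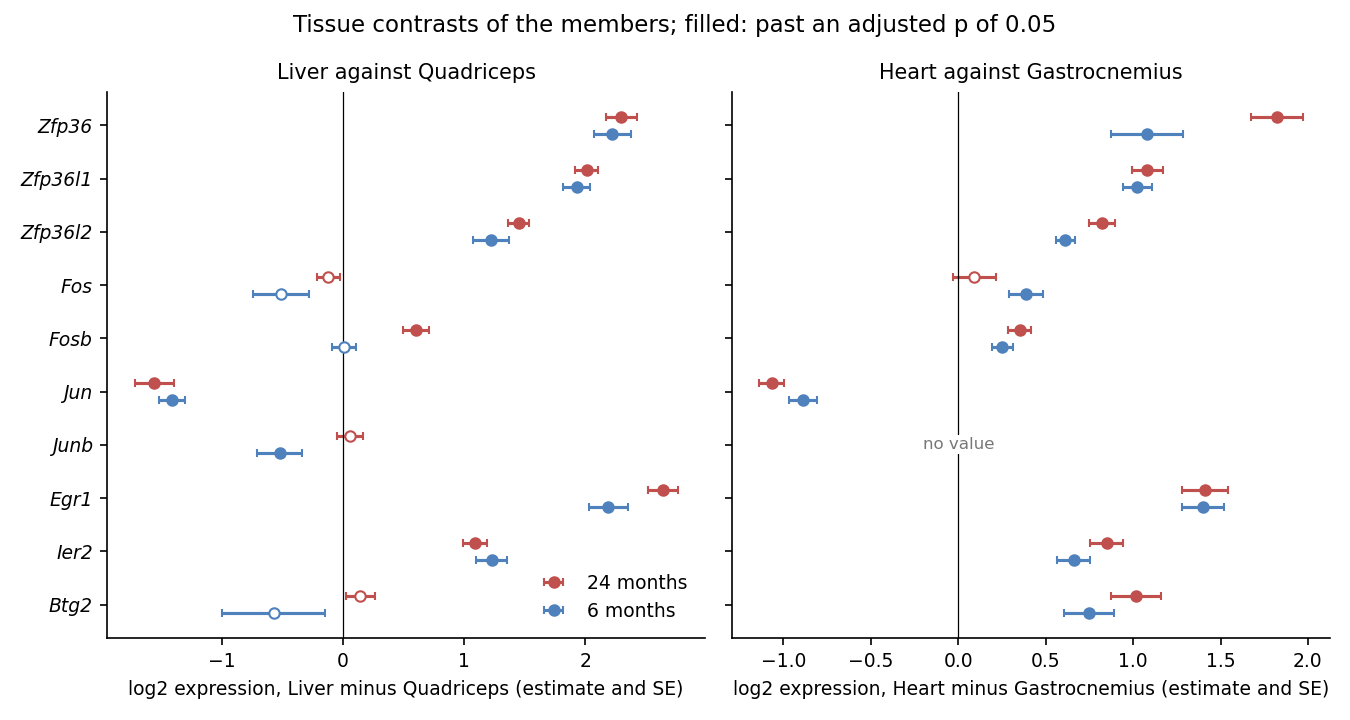
Difference in log2 expression of each member between liver and quadriceps (left) and between heart and gastrocnemius (right), with bars of 1 SE from limma; red is 24 months and lies above blue, 6 months, and filled points passed an adjusted p of 0.05. Zfp36, Zfp36l1, Zfp36l2, Egr1 and Ier2 lie right of 0 in both panels and at both ages, and Jun lies left of 0.

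The age differences of the members were also set against each other between tissues of 1 array type. Those of Fosb differed by 0.59 (SE 0.15) between liver and quadriceps, at 0.35 in liver and -0.24 in quadriceps. Those of Zfp36 differed by 0.74 (SE 0.27) between heart and gastrocnemius, at 0.21 in heart and -0.54 in gastrocnemius. Those of Zfp36l1 differed by 0.08 (SE 0.15) between liver and quadriceps and by 0.06 (SE 0.13) between heart and gastrocnemius. These values are built from the age differences by which the members were chosen, so they are descriptions. By limma 0 members were called, where 0.0151% of all genes were between liver and quadriceps and 0.595% between heart and gastrocnemius, and nothing is read from that count.

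The rest of the immediate early programme was followed over a list of 40 further genes, all measured. In gastrocnemius 28 of the 40 were lower at 24 months (median -0.08), among them the endothelial shear-stress factor Klf2 at -0.44 (SE 0.11; limma, adjusted p = 0.126) and the nuclear receptor Nr4a2 at -0.33 (SE 0.09; limma, adjusted p = 0.130). In quadriceps 24 of 40 were lower (median -0.10), with Klf10, a TGF-beta-induced factor, at -0.67 (SE 0.12; limma, adjusted p = 0.328). On quadriceps 6-month replicate 3, 19 of the 40 were highest or tied. In liver 27 of 40 were higher at 24 months (median 0.12), or 22 of 40 with arrays centred on their medians, with Ier5l at 0.45 (SE 0.09; limma, adjusted p = 0.0543) and Egr4 at 0.46 (SE 0.12; limma, adjusted p = 0.0586). In heart 24 of 40 were higher (median 0.02), or 20 of 40 after either scaling, with the growth arrest gene Gadd45b at 0.44 (SE 0.11; limma, adjusted p = 0.418). None of the 40 was called in any tissue. The number with an unadjusted limma p under 0.05 was 17 in liver, 3 in quadriceps, 14 in heart and 10 in gastrocnemius. Of all genes, 32.8% in liver, 7.06% in quadriceps, 5.99% in heart and 16.5% in gastrocnemius had such a p.

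Of 23 kinases and factors that act upstream of these genes, 19 were measured, and 0 were called in any tissue. Serum response factor, Srf, differed by -0.28 (SE 0.07; limma, adjusted p = 0.126) in gastrocnemius and its partner Elk1 by -0.27 (SE 0.06; limma, adjusted p = 0.103). In liver Rps6ka3 differed by -0.55 (SE 0.12; limma, adjusted p = 0.0543) and Braf by -0.33 (SE 0.09; limma, adjusted p = 0.0667). In quadriceps Mrtfa differed by 0.18 (SE 0.09; limma, adjusted p = 0.730) and Mrtfb by 0.13 (SE 0.07; limma, adjusted p = 0.760). In heart Mapkapk3 differed by 0.16 (SE 0.06; limma, adjusted p = 0.663) and Elk3 by -0.17 (SE 0.06; limma, adjusted p = 0.698). The list's median was -0.02 in gastrocnemius, -0.02 in quadriceps, -0.04 in heart and -0.12 in liver, and its sign in gastrocnemius turned with quantile normalization. In liver 14 of 19 were lower at 24 months, or 10 of 19 with a median of -0.03 after quantile normalization. With arrays centred on their medians, 18 of 19 were lower in liver, with a median of -0.21 against -0.06 over all genes. Unadjusted p-values under 0.05 were found for 8 of 19 in gastrocnemius, 0 in quadriceps, 4 in heart and 4 in liver. The shares of all genes were 16.5% in gastrocnemius, 7.06% in quadriceps, 5.99% in heart and 32.8% in liver.

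The deadenylation and decay machinery that ZFP36 proteins and BTG2 recruit was measured in 27 of 28 genes on the liver and quadriceps arrays and 25 on the others. In liver 24 of 27 were lower at 24 months, with a median of -0.17 against 0.03 over all genes, and 20 of 27 with a median of -0.07 after quantile normalization. The RNA-stabilizing protein gene Elavl1 read -0.31 (SE 0.08; limma, adjusted p = 0.0615) there. The median was -0.03 in quadriceps, heart and gastrocnemius, or 0.01 in gastrocnemius with quantile normalization. None of these genes was called, and the number with an unadjusted p under 0.05 was 8 in liver, 1 in quadriceps, 2 in heart and 3 in gastrocnemius. Over all genes the shares were 32.8% in liver, 7.06% in quadriceps, 5.99% in heart and 16.5% in gastrocnemius. Tob2, a BTG-family adaptor of the same complex, differed by -0.39 (SE 0.16; limma, adjusted p = 0.272) in gastrocnemius and by 0.22 (SE 0.07; limma, adjusted p = 0.590) in heart.

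Known AU-rich targets of ZFP36 are mostly cytokine genes. Their mean per array was 5.64 to 5.75 at 24 months and 5.61 to 5.73 at 6 months in quadriceps, below the median of all values there. Of 21 measured in liver, 17 were higher at 24 months (median 0.18), or 14 with arrays centred on their medians, with the chemokine gene Ccl2 at 0.50 (SE 0.09; limma, adjusted p = 0.0543) and Il23a at 0.52 (SE 0.12; limma, adjusted p = 0.0571). The median was 0.06 in quadriceps, -0.05 in heart and 0.06 in gastrocnemius. None was called, and the number with an unadjusted p under 0.05 was 7 in liver, 0 in quadriceps, 1 in heart and 2 in gastrocnemius. Among all genes such a p was held by 32.8% in liver, 7.06% in quadriceps, 5.99% in heart and 16.5% in gastrocnemius. Most immune markers in liver were also higher at 24 months, for 8 of 8 of neutrophils, 6 of 6 of T and NK cells and 4 of 5 of B and plasma cells. Of macrophage markers 7 of 10 were higher, or 5 of 10 with arrays centred on their medians. The macrophage mean was 8.13 to 8.56 at 24 months and 8.22 to 8.28 at 6 months. The neutrophil mean was 5.88 to 6.06 at 24 months and 5.56 to 5.72 at 6 months (median difference 0.29). The T and NK cell mean was 6.09 to 6.40 at 24 months and 5.72 to 5.98 at 6 months (median difference 0.31). Markers of skeletal muscle fibre were higher in liver too, for 6 of 6 (median 0.30), and those of cardiomyocytes for 5 of 6 (median 0.16). Apart from the macrophage list, every liver array mean of these lists and of the AU-rich list lay below 6.72, the median of all liver values. The part of these lists was not tested.

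Heat shock genes were the 1 list with a call. Hsp90aa1, the stress-inducible HSP90 gene, fell at 24 months in liver by 0.75 on the log2 scale (limma, adjusted p = 0.0493). It did not pass with quantile normalization (-0.67; limma, adjusted p = 0.0573), nor with any 1 liver array left out other than 24-month replicate 3 (limma, adjusted p 0.0698 to 0.164). In liver 12 of 13 were lower (median -0.60), and 12 of 13 in quadriceps (median -0.35), with 11 in liver and 5 in quadriceps past an unadjusted p of 0.05 in either direction. The medians were -0.06 in heart and -0.04 in gastrocnemius, with 1 of 12 in heart and 2 of 12 in gastrocnemius past that threshold. Of all genes, 32.8% passed it in liver, 7.06% in quadriceps, 5.99% in heart and 16.5% in gastrocnemius. In quadriceps most of the list peaked on 6-month replicate 3, as described above. On the other 6-month quadriceps arrays Hspa1a read 7.59 and 7.79, against 7.44 to 7.77 at 24 months. Dnajb1 read 6.66 and 6.52 there, against 6.57 to 6.74. Hsph1 stayed lower at 24 months, at 8.44 to 8.57, against 8.77 and 8.74.

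Genes outside the list whose values ran most like a member's were found over all 28 arrays, each centred on its tissue mean, among 18965 genes measured on both array types. Likeness is the root-mean-square difference, so smaller is closer. Closest to Zfp36 were Tob2 (0.19), Rhob (0.21) and Bcl2l1 (0.21), and Zfp36 itself deviated from its tissue means by 0.28. Closest to Fos were Fosl2 (0.19), Cldn5 (0.20) and Lrrc32 (0.21), against 0.28 for Fos itself. Closest to Btg2 were Phyhd1 (0.27), Fosl2 (0.28) and Klk1b16 (0.29), against 0.38 for Btg2. The tight junction gene Cldn5 differed by -0.44 in quadriceps, -0.36 in heart, -0.30 in gastrocnemius and -0.09 in liver at 24 months, beside -0.45, -0.56, -0.26 and -0.06 for Fos. Fosl2 and Lrrc32 were lower in the muscles and heart too, but in liver they differed by 0.03 and 0.12. These genes were picked by likeness over the same arrays of both ages, so near age differences follow from the choice and test nothing.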

How the data were processed

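RNA was amplified with a whole-transcript kit, labelled and hybridised to Affymetrix arrays, per the labels' protocols. The values are log2 expression as the authors deposited them, to 2 decimals, in a table for each of the 2 array types. The submitters' processing notes name RMA but no version. The sources used here do not give which arrays RMA normalized together, and a shift shared by most genes of an array can be lost in that step. Columns were matched to samples by name, with 0 left over, and no array was a copy of another.

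Only probe sets annotated to 1 gene were used, 21797 of 28944 on the liver and quadriceps arrays and 30604 of 65956 on the others. Old symbols (23 and 1135 probe sets) were replaced through RefSeq's gene table for GRCm38.p6. Each gene took its probe set of highest mean. Groups came from the labels. Contrasts were fitted by limma 3.58.1 under R 4.3.3 (functions lmFit, then eBayes; two-sided, only the groups compared, no covariate), with Benjamini-Hochberg adjustment over all genes at a threshold of 0.05. On simulated data with 200 altered genes the fits were tested first. The members and gene lists were chosen with earlier results of these data known. Named genes are all members, the called genes of the other lists, up to 2 of smallest p per list and tissue where none was called, and the 3 most like each of Zfp36, Fos and Btg2. Genes that describe single arrays were picked after seeing their values. Alternatives tried were quantile normalization, centring arrays on their medians, leaving out dim genes (no group mean at or above the median of all values), averaging a gene's probe sets, an intensity trend with robust prior, the replicate number as a block, 1 joint fit per array type, and leaving out each array in turn.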

Additional observations from a re-analysis of the deposited data

Results flagged for a closer look

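In each group of 4 arrays, the highest and the lowest value of a member were set against the rest by the size of their gap. Of 36 such groups, 4 held an array that stood apart, and chance alone would give about 1 in 20. Zfp36 read 9.55 on 24-month heart replicate 3, against 8.83 to 8.94 on the other 3 arrays of that group. Btg2 read 7.95 on 24-month heart replicate 4, against 8.38 to 8.39 on the others. Ier2 read 6.29 on 24-month gastrocnemius replicate 3, against 6.35 to 6.36 on the others, a gap near the rounding of the deposited values. Fosb read 5.98 on 6-month gastrocnemius replicate 1, against 5.84 to 5.85 on the others. Groups of 3, in liver and quadriceps, were not examined this way.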

How the results depend on the processing

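Under the settings that kept all arrays, the 263 values of the members' age differences moved by less than the spread between replicates, though Zfp36 and Btg2 in liver and Jun in gastrocnemius took either sign. Leaving out 1 array changed more. Btg2 in quadriceps was -0.04 without 6-month replicate 3, against -0.63. Over the arrays left out, Zfp36, Zfp36l2, Fos, Jun and Btg2 took either sign in liver, Zfp36, Jun and Ier2 in quadriceps and Fosb, Ier2 and Btg2 in heart, and no member did in gastrocnemius. Limma called Fosb in liver with dim genes left out, without 24-month replicate 3 and in the joint fit, Zfp36l1 in liver in the joint fit, and Zfp36l1 in gastrocnemius in the joint fit. It called no other member for age under any setting. Among all liver genes, 1764 of 10382 were called with dim genes left out, 5073 of 19928 without 24-month replicate 3 and 3625 of 19928 in the joint fit. The joint fit called 829 of 30063 in gastrocnemius. Because the members were chosen with these contrasts known, nothing is read from their calls. For the named genes of the other lists, 261 of 274 values without an array and 237 of 268 under other settings kept direction and call, and 29 values under other settings passed where the deposited values had not. Genes called over the whole table varied more. In liver there were 65, and 8 with quantile normalization, 1960 with median centring (347 higher and 1613 lower, against 28 and 37), 1764 with dim genes left out, 2243 with the trend and robust prior, 3625 in the joint fit and 0 to 5073 without an array. In quadriceps there was 1, and 9 with dim genes left out, 18 with the trend, 15 in the joint fit and 0 without any 1 array. In heart there were 2, and 4 with quantile normalization, 6 with centring, 21 with dim genes left out, 14 with the trend, 25 in the joint fit and 0 to 5 without an array. In gastrocnemius there were 3, and 1 with centring, 81 with dim genes left out, 9 with the trend, 829 in the joint fit and 0 to 70 without an array. Between liver and quadriceps the age difference differed for 3 genes, and for 49 with centring, 203 with dim genes left out, 159 with the trend and 0 to 1462 without an array. Between heart and gastrocnemius it differed for 179 (147 higher, 32 lower in heart), and for 89 with quantile normalization (51 and 38), 62 with centring, 470 with dim genes left out and 22 to 547 without an array. The causes were not tested, except that leaving out dim genes tests fewer genes.

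Replicate numbers are shared between groups, but same-numbered arrays deviated together weakly at most (correlations from -0.22 to 0.30), so the numbers were not taken as pairs. With the replicate number as a block, 0 genes were called for age in liver, quadriceps, heart and gastrocnemius (with 6577, 1424, 1552 and 5718 at an unadjusted p under 0.05), and 12 for the difference between liver and quadriceps. In no pair of groups did every array match its own number best. Between the ages, 3 of 4 did in gastrocnemius, where the highest correlation lay, 2 of 3 in liver, 1 of 3 in quadriceps and 0 of 4 in heart. A structure shared by replicate number is thus not excluded, least of all in gastrocnemius.

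Of the members' tissue contrasts, 253 of 264 values without an array and 245 of 264 under other settings kept direction and call. With dim genes left out, 13405 genes passed between heart and gastrocnemius at 6 months, against 23266, and 12903 at 24 months, against 21598. Fosb between liver and quadriceps at 6 months turned from its 0.01 to -0.0886 with quantile normalization and -0.1067 with centring, and ran from -0.07 to 0.11 without an array (below 0 without liver replicate 1 or quadriceps replicate 1 or 2). Btg2 there ran from -0.8817 to 0.0133, this last without 6-month quadriceps replicate 3. At 24 months Junb turned to -0.1281 with quantile normalization and -0.1367 with centring and ran from -0.015 (without liver replicate 2) to 0.1467, and Btg2 turned to -0.0628 with quantile normalization and -0.05 with centring. Between heart and gastrocnemius Fosb turned at 6 months to -0.0594 with quantile normalization and -0.065 with centring. Fos turned at 24 months to -0.1475 with quantile normalization and -0.2275 with centring, and ran from -0.005 (without heart replicate 2) to 0.1775. The number of arrays per group limits what these data can show.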
